A study of Mus musculus with 16 samples.

Results

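The comparison described here was between *Pac1*-/- and WT group 2 innate lymphoid cells (ILC2s) of the mouse lung after stimulation with IL-7, IL-33, and neuromedin U (NMU). It took in 4 of the 16 RNA-Seq libraries of the study, 2 WT and 2 *Pac1*-/-, chosen by their genotype and treatment labels, and these were all the libraries with NMU. The WT group carried the unmodified *Pac1* gene, and the *Pac1*-/- group lacked it throughout the body, on a C57BL/6J background. Mice were adults, matched for age and sex. Cells of both groups had been purified from lung by flow cytometry and stimulated for 4 hours with all 3 factors, so IL-7 and IL-33 were shared by the groups compared. Under the study's culture methods, sorted lung ILC2s were first expanded for a week or more with IL-2 and IL-7. Both factors were taken out before the stimuli were given. The bulk RNA-Seq methods do not repeat this step. About 500 ILC2s were sorted into each library. The other 12 libraries held the same genotypes, 2 libraries each, with IL-7, with IL-7 plus IL-33 (called IL-33 from here on), and with IL-7, IL-33, and calcitonin gene–related peptide (CGRP). The deletion was not limited to ILC2s, and whether 2 libraries of a group came from separate mice or cultures was not stated, so *P* values measure only the spread between these libraries.

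ILC2s are tissue-resident lymphocytes that answer the epithelial alarmin IL-33 with type 2 cytokines, which recruit eosinophils and drive mucus production. NMU is a neuropeptide released by cholinergic neurons. It signals through the receptor NMUR1, Gq proteins, and calcium, and raises the output of type 2 cytokines, whereas CGRP acts through a cAMP-coupled receptor made of CALCRL and RAMP1. PAC1, encoded by *Dusp2*, is a nuclear dual-specificity phosphatase known to dephosphorylate MAP kinases.

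The NMU libraries held 6764992 and 7826406 counts in WT and 11646898 and 10970340 counts in *Pac1*-/- ILC2s, and the 16 libraries ranged from 6764992 to 15963357. The WT libraries were therefore the shallower ones, and 3 counts, the limit that a count of 0 allows, corresponded to between 0.27 and 0.462 CPM. CPM are counts scaled to a common library size, here by the trimmed mean of M values over all 16 libraries, and levels are in this unit. Differences are log2 fold changes of *Pac1*-/- over WT with standard errors (SE) from edgeR. A gene was called when its fold change exceeded 1.5 and its Benjamini-Hochberg adjusted *P* value, from edgeR's quasi-likelihood test over all 10621 tested genes, was under 0.05. The 14 ILC2 markers summed to between 7427 and 8939 CPM in the 4 NMU libraries. Of these, 13 were above the floor in some NMU library, and *Ptgdr2* was at 0 in all 4. Among the 13, *Il17rb* had 0 and 117 counts in WT and 105 and 0 counts in *Pac1*-/- ILC2s. The targeted gene could not check the genotypes, as *Dusp2* had 29 and 0 counts in WT and 0 and 0 counts in *Pac1*-/- ILC2s with NMU.

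With NMU, 3 of the 10621 genes tested were called, which is 0.0282%. *Il3* was higher in *Pac1*-/- ILC2s (1 gene, 0.00942%), and the long noncoding RNA *Gm42031* and the surfactant gene *Sftpc* were lower (2 genes, 0.0188%). An unadjusted *P* value under 0.05 was reached by 519 genes (4.89%), 176 of them higher (1.66%) and 343 lower (3.23%). The genotypes did not overlap for 1871 genes that were higher in *Pac1*-/- ILC2s (17.6%) and for 1987 that were lower (18.7%). DESeq2 on the same genes called 66 (0.621%), of which 17 were higher and 49 lower, and the 3 genes above were among them. The adjusted *P* values by edgeR of genes named below as not called were 0.170 or more.

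The type 2, type 3, and growth factor cytokine genes shared a direction. All 9 tested members of the type 2, type 3, and growth factor cytokine lists had higher fitted levels in *Pac1*-/- ILC2s, and for 8 of the 9 the genotypes did not overlap, against 17.6% of all tested genes. Their median log2 fold change was 1.34, compared with −0.02 over all genes, and 6 of 9 had an unadjusted *P* value under 0.05, while 1, *Il3*, was called. DESeq2 called 5 of the 9, which were *Il3*, *Csf2*, *Il2*, *Il17f*, and *Il13*. The remaining 2 members of these lists, *Il22* and *Csf1*, did not pass the filter on low counts, with at most 21 counts in any NMU library.

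*Il3*, a hematopoietic growth factor that acts on mast cells and basophils, had 1 count in each WT library and 809 and 602 counts in the *Pac1*-/- libraries. In scaled units these were 0.154 and 0.111 CPM against 77.3 and 54.2 CPM. The ratio of the genotypes was 506, with a 95% interval from 140 to 4184 that covers counting error only, and the fitted log2 fold change was 8.84 (SE 0.72, edgeR adjusted *P* = 0.0404). Its call ended without WT replicate 1 (adjusted *P* = 0.121) and without WT replicate 2 (adjusted *P* = 0.067), where the fitted fold change was 9.05 and 8.62 on the log2 scale. *Il3* was at 0 counts in all 8 libraries with IL-7 or IL-33, so no interaction of genotype with NMU could be estimated for it. With CGRP it was detected in both genotypes, at 133 and 116 CPM in WT and 79.1 and 33.1 CPM in *Pac1*-/- ILC2s. *Il3* was therefore measured in WT ILC2s with CGRP but was under the limit of 3 counts with NMU, and the *Pac1*-/- libraries with NMU lay within the range of the *Pac1*-/- libraries with CGRP.

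*Csf2*, which encodes GM-CSF and lies 15.6 kb from *Il3*, was at 1880 and 1055 CPM in WT and 6403 and 3865 CPM in *Pac1*-/- ILC2s, a log2 fold change of 1.81 (SE 0.45; DESeq2 adjusted *P* = 0.000799). Both *Pac1*-/- libraries were above both WT libraries. Without NMU the difference in *Csf2* was −0.15 for IL-7, −0.96 for IL-33, and 0.08 for CGRP. The interaction, which is the genotype difference with NMU minus that with IL-33, was 2.75 (SE 0.58) and had an adjusted *P* value of 0.786 by edgeR. Over all 12567 genes, no interaction was called (0%), with 785 genes at an unadjusted *P* value under 0.05 (6.25%) and 38 called by DESeq2. *Il2*, a growth factor for lymphocytes, was at 81.7 and 30.1 CPM in WT and 267 and 179 CPM in *Pac1*-/- ILC2s with NMU. This was a log2 fold change of 2.0 (SE 0.53, DESeq2 adjusted *P* = 0.0164). It was 2.89 and 1.45 without WT replicates 1 and 2, and 1.69 and 2.27 without *Pac1*-/- replicates 1 and 2. With CGRP the genotypes overlapped for *Il2*, at 297 and 224 CPM against 282 and 250 CPM. Its log2 fold change was 1.75 with IL-7, the same sign as with NMU, and −0.68 with IL-33.

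Among the type 2 cytokines, *Il13*, which drives mucus production, was at 115 and 140 CPM in WT and 347 and 301 CPM in *Pac1*-/- ILC2s. This log2 fold change of 1.34 (SE 0.30) was not called by edgeR (adjusted *P* = 0.995) and was called by DESeq2 (adjusted *P* = 0.0188). In the 12 libraries without NMU, *Il13* lay between 5.03 and 38.6 CPM, below all 4 NMU libraries, and the genotype difference fitted over those 12 was −0.01. That fit combined differences of opposite sign, 0.54 (IL-33) and −0.61 (CGRP), beside −0.003 (IL-7). The interaction for *Il13* was 0.79 (edgeR adjusted *P* = 0.804). *Il5*, the main eosinophil growth factor and the most abundant of the cytokines, was at 14977 and 16211 CPM in WT and 27479 and 24132 CPM in *Pac1*-/- ILC2s. Its difference of 0.73 (SE 0.36) stood beside 0.04, −0.16, and −0.14 with IL-7, IL-33, and CGRP. *Il4*, the cytokine of Th2 differentiation, was at 68.0 and 61.9 CPM against 125 and 73.2 CPM (0.61, SE 0.38). The exception to the separation was *Il9*, a mast cell and ILC2 growth factor, whose groups overlapped at 3284 and 2084 CPM in WT and 4791 and 2932 CPM in *Pac1*-/- ILC2s (0.53, SE 0.41).

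The type 3 cytokines *Il17a* and *Il17f*, adjacent genes on chromosome 1 whose products recruit neutrophils, had the same sign. *Il17f* was at 614 and 366 CPM in WT and 1299.6 and 1284 CPM in *Pac1*-/- ILC2s (1.4, SE 0.36, DESeq2 adjusted *P* = 0.0137), and *Il17a* at 228 and 157 CPM against 512 and 319 CPM (1.11, SE 0.37). *Il17a* was at 0 counts in every IL-33 library. With CGRP, *Il17f* lay the other way, at 417 and 436 CPM in WT and 148 and 54.5 CPM in *Pac1*-/- ILC2s. *Il17a* did not share this, as its fitted log2 fold change with CGRP was 4.21. For *Il17f* the difference was 0.83 with IL-33 and −0.28 with IL-7.

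**Figure D1:**
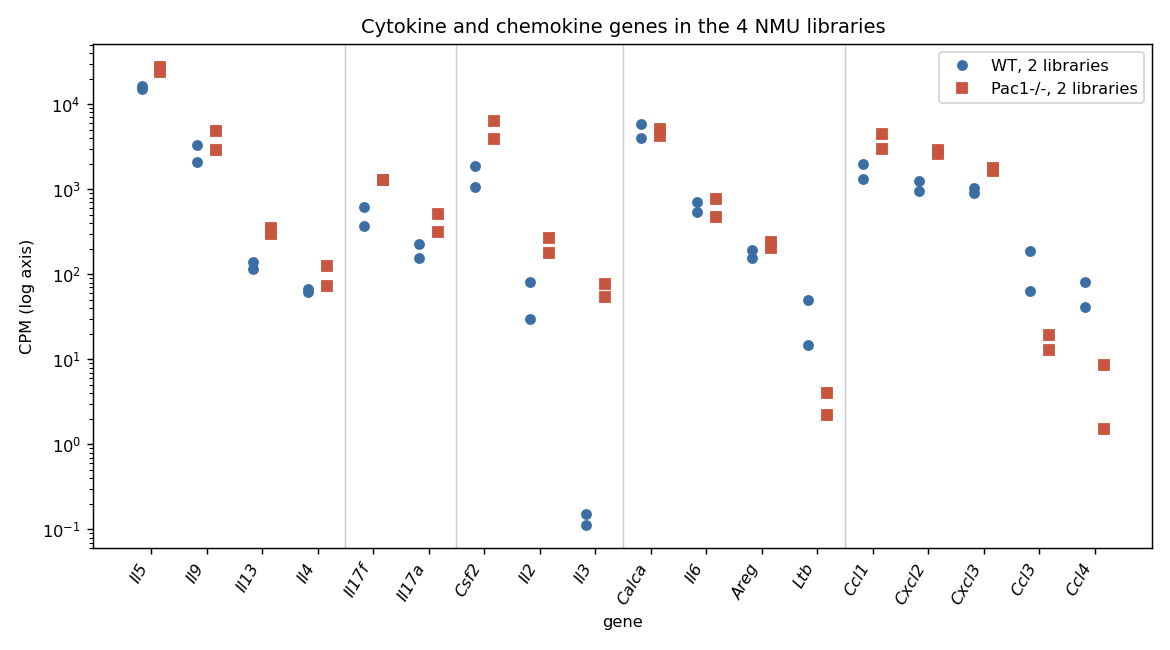
Levels of 18 cytokine and chemokine genes in the NMU libraries, in CPM on a log axis, with WT libraries as circles and *Pac1*-/- libraries as squares. Vertical lines part the type 2, type 3, growth factor, other cytokine, and chemokine genes; *Il3* separated by a ratio of 506, and *Ltb*, *Ccl3*, and *Ccl4* lay lower in *Pac1*-/- ILC2s.

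Cytokines outside these lists did not share the pattern. Of 17 listed, 12 were tested, 5 with a positive and 7 with a negative log2 fold change, and the median was −0.04. *Il6* was at 715 and 539 CPM in WT and 768 and 476 CPM in *Pac1*-/- ILC2s (−0.01, SE 0.36; the sign turned with DESeq2). *Calca*, which encodes CGRP itself, was at 5928 and 4007 CPM against 5070 and 4249 CPM (−0.09, SE 0.36), and *Areg*, the epithelial repair factor amphiregulin, at 192 and 157 CPM against 202 and 241 CPM (0.35, SE 0.30). The genotypes overlapped for *Il6* and *Calca* and lay apart for *Areg*, by little more than 1 SE. *Ltb*, encoding a lymphotoxin subunit, was the one with an unadjusted *P* value under 0.05, at 14.9 and 50.5 CPM in WT and 2.20 and 4.05 CPM in *Pac1*-/- ILC2s (−3.38, SE 0.83), and without WT replicate 2 the difference was −2.25. With CGRP it had the opposite sign (2.06). The 6 B cell markers were also higher in *Pac1*-/- ILC2s with CGRP, summing to 35.4 and 79.1 CPM in WT and 270.2 and 282 CPM in *Pac1*-/- ILC2s, beside 15.4 and 14.0 CPM against 6.78 and 0.27 CPM with NMU, and their part in the *Ltb* values was not tested. *Il10*, *Il21*, *Ifng*, and *Il18* had 0 counts in all 4 libraries.

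Chemokine genes split in 2 directions. Of 15 listed, 9 were tested, with 6 positive and 3 negative log2 fold changes, a median of 0.81, and 3 genes in each direction at an unadjusted *P* value under 0.05. *Cxcl2*, a neutrophil attractant, was at 1251 and 945 CPM in WT and 2878 and 2569 CPM in *Pac1*-/- ILC2s (1.31, SE 0.33), and its paralog *Cxcl3* at 909 and 1031 CPM against 1785 and 1654 CPM (0.83). These transcripts share near-identical stretches, so the counting could have split reads between them. *Ccl1*, a ligand of CCR8, was at 1988 and 1337 CPM in WT and 4503 and 2964 CPM in *Pac1*-/- ILC2s (1.17, SE 0.39). In the 3 other treatments *Ccl1* was lower in *Pac1*-/- ILC2s, with no overlap, at −1.27 (IL-7), −1.15 (IL-33), and −0.33 (CGRP), and the interaction was 2.30 (SE 0.53, edgeR adjusted *P* = 0.786).

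The inflammatory chemokines *Ccl3*, *Ccl4*, and *Ccl5*, which attract leukocytes, lay the opposite way. *Ccl3* was at 186 and 63.4 CPM in WT and 19.6 and 12.8 CPM in *Pac1*-/- ILC2s (−2.94, SE 0.60), its neighbor *Ccl4* at 81.1 and 41.7 CPM against 8.69 and 1.53 CPM (−3.58, SE 0.89), and *Ccl5* at 53.5 and 29.2 CPM against 19.5 and 7.29 CPM (−1.62). DESeq2 called *Ccl3* (adjusted *P* = 0.00031) and *Ccl4* (adjusted *P* = 0.00273). Without WT replicate 1 the *Ccl3* difference was −1.97, and the *Ccl4* difference was −5.31 and −2.81 without *Pac1*-/- replicates 1 and 2. *Ccl3* was close to absent elsewhere, at no more than 1.80 CPM in the other 12 libraries. *Ccl4* was at 0 counts in 10 of those 12 and at 83.7 and 121 CPM in the *Pac1*-/- libraries with CGRP, the same libraries in which the B cell markers were high. Its level was thus higher in WT with NMU and higher in *Pac1*-/- ILC2s with CGRP, and the part of B cell transcripts was not tested. The difference in *Ccl5* was not limited to NMU, at −2.24 with IL-33 and −2.63 with CGRP, beside 0.30 with IL-7.

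The promoters shown are those of *Il3*, the called cytokine gene, of *Csf2* and *Il13*, which lie in the same cluster on chromosome 11, and of *Ccl3*, a chemokine gene on the other side. The sequences are from RefSeq on GRCm38.p6, from 250 bases before to 50 bases after the start of the gene in RefSeq and on its own strand. For *Csf2* that start lies 232 bases upstream of the start in GENCODE M21, the annotation used for gene positions here, so its window is wholly upstream of the GENCODE gene. Capitals mark the core of the site for the calcium-regulated factor NFAT (GGAAA or its complement TTTCC) and a GATA site (AGATAA or its complement TTATCT), searched on both strands.
*Il3* (chr11:54267230-54267529, minus strand): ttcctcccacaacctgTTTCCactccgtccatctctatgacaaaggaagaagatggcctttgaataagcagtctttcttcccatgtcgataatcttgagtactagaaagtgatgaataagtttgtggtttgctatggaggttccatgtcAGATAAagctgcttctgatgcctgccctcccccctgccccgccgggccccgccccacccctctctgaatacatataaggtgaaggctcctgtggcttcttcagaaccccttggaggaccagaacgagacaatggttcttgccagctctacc
*Csf2* (chr11:54249850-54250149, minus strand): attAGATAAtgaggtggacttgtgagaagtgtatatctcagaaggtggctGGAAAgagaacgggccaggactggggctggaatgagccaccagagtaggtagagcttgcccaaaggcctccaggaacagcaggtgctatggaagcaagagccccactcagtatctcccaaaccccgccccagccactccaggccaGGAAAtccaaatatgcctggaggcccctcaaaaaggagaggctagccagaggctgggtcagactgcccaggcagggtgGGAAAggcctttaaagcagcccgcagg
*Il13* (chr11:53634653-53634952, minus strand): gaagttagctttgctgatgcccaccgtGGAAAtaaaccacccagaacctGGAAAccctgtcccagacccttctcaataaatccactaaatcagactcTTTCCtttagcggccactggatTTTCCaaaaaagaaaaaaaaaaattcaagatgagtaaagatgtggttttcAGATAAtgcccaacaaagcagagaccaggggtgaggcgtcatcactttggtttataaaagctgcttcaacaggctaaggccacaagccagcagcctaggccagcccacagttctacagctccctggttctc
*Ccl3* (chr11:83649329-83649628, minus strand): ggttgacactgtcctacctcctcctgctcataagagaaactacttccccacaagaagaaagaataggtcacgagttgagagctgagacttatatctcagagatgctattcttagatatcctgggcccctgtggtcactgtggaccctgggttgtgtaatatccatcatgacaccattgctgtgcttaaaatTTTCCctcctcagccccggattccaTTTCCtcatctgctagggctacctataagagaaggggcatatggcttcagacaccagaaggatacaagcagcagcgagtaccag

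The NFAT core occurred 1 time in *Il3*, 3 times in *Csf2*, 4 times in *Il13*, and 2 times in *Ccl3*, and 61.3% of the 32851 promoters of this length held it. Of 14 cytokine and chemokine genes looked up, 13 (not *Ccl4*) matched 14 windows, and 13 of the 14 held the NFAT core. The GATA site, in 11.2% of all promoters, was in 3 of the 14 windows, those of *Il3*, *Csf2*, and *Il13*. An AP-1 site (TGANTCA, in 7.81% of all promoters) was in 2, those of *Il17a* and *Il9*, and a cAMP response element (TGACGTCA, in 1.79%) in 0. These matches are letters in a window and say nothing of which factors were bound.

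*Il3*, *Csf2*, *Il5*, *Il4*, and *Il13* lie together on chromosome 11, between positions 53602982 and 54267277 of mm10, in a stretch of 664 kb with 27 annotated genes. This stretch was examined after the values were seen. Of its 12 tested genes, 5 were the cytokine genes described above, by which the stretch was chosen. Of the 7 others, 0 were higher in *Pac1*-/- ILC2s without overlap (17.6% of all tested genes were), 1 was lower, and 6 overlapped. *Rad50*, a DNA repair gene between *Il13* and *Il5*, was at 128 and 151 CPM in WT and 119 and 133 CPM in *Pac1*-/- ILC2s (−0.15, SE 0.30). *Irf1*, an interferon-regulated transcription factor gene in the same stretch, lay the other way, at 23.7 and 37.3 CPM against 13.5 and 11.4 CPM (−1.29, SE 0.55), while with IL-33 it was higher in *Pac1*-/- ILC2s, at 46.3 and 82.9 CPM against 20.2 and 19.4 CPM. The remaining tested genes were low, none above 24.7 CPM in any NMU library, and overlapped.

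Some differences did not depend on NMU. *Gm42031*, a long intergenic noncoding RNA on chromosome 8 (85125872 to 85132289), was at 278 and 314 CPM in WT and 0.76 and 0.99 CPM in *Pac1*-/- ILC2s, a log2 fold change of −8.37 (SE 0.43, edgeR adjusted *P* = 0.00383). Fitted on the 12 libraries without NMU, with treatment as a covariate, the difference was −7.56 (adjusted *P* = 0.000974). In those libraries WT lay between 177 and 394 CPM and *Pac1*-/- between 0.326 and 7.6 CPM. That fit, which shares no library with the NMU comparison, called 6 of 14446 genes (0.0415%), and all 6 had the same sign with NMU.

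The other 5 were *Gm10320*, *Gm15446*, *Gm28438*, *Gm5905*, and *Lgals3*. *Gm10320* was at 3.08 and 7.68 CPM in WT and 276 and 159 CPM in *Pac1*-/- ILC2s with NMU (5.32, SE 0.59), and the difference over the other 12 libraries was 3.90 (edgeR adjusted *P* = 0.000291). *Gm15446* was at 0.77 and 1.45 CPM against 64.2 and 20.9 CPM (5.23, SE 0.86), with 4.13 over the other 12. These are predicted genes: *Gm10320* shares near-identical stretches with 3 other genes, *Gm15446* with 5, and *Gm42031* with 8, so which copy the reads came from is uncertain. *Lgals3* is the well-characterized gene among them and encodes galectin-3, a carbohydrate-binding protein of inflammation. It was at 47.5 and 113 CPM in WT and 199.6 and 309.6 CPM in *Pac1*-/- ILC2s with NMU (1.67, SE 0.48), beside differences of 2.44 (IL-7), 2.35 (IL-33), and 2.79 (CGRP).

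*Gm28438* and *Gm5905* were named after their values were seen. *Gm28438* was at 29.8 and 19.7 CPM in WT and 1.53 and 0.72 CPM in *Pac1*-/- ILC2s with NMU (−4.45), and its sequence is near-identical to the mitochondrial gene *mt-Nd3*, which lay the other way at 1.85 and 4.23 CPM against 22.0 and 21.7 CPM (2.83, SE 0.77). *mt-Nd3* differed in the same direction with IL-7 (3.11), IL-33 (2.69), and CGRP (3.06), and was not called over those 12 libraries (adjusted *P* = 0.141). Other mitochondrially encoded genes did not share this, as the median over 11 tested was 0.19 and *mt-Cytb*, with the highest level, overlapped at 14100.2 and 6278 CPM in WT and 14300.4 and 9886 CPM in *Pac1*-/- ILC2s.

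**Figure D2:**
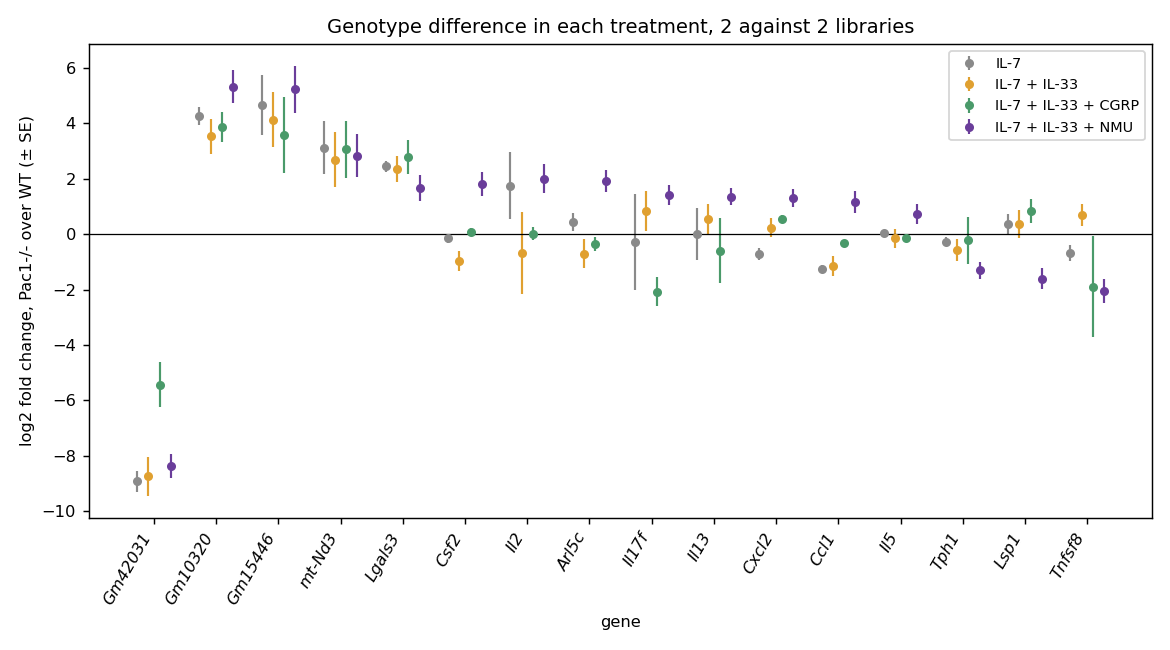
Genotype differences of 16 genes in each of the 4 treatments, as log2 fold changes of *Pac1*-/- over WT with SE bars, each from 2 against 2 libraries. *Gm42031*, *Gm10320*, *Gm15446*, *mt-Nd3*, and *Lgals3* kept 1 sign in all 4 treatments, whereas *Csf2* and *Ccl1* were positive with NMU at 1.81 and 1.17 and negative with IL-33 at −0.96 and −1.15.

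Transcripts of other lung cells moved with genotype in these libraries. *Sftpc*, surfactant protein C of alveolar type 2 cells, was at 178 and 94.5 CPM in WT and 0.19 and 0 CPM in *Pac1*-/- ILC2s, a ratio of 1400.1 (95% interval for counting error 387 to 11569). Its fitted log2 fold change was −10.32 (SE 0.88, edgeR adjusted *P* = 0.0426), and the call ended without WT replicate 1 (adjusted *P* = 0.103), with size factors of DESeq2's kind (0.0532), and with all 16 libraries in the fit (0.339). It had 2 counts in total among the *Pac1*-/- NMU libraries and at most 0.18 CPM in the other 12 libraries. *Lyz2*, lysozyme of macrophages, was at 112 and 27.9 CPM in WT and 0 counts in both *Pac1*-/- libraries, at least 455-fold lower than in WT against 3 counts over the group. *Scgb1a1*, the secretoglobin of airway club cells, was at 90.5 and 40.8 CPM against 9.55 and 2.79 CPM (−3.41, SE 0.76). The same WT libraries held *H2-Ab1*, an MHC class II gene, at 37.2 and 33.2 CPM against 0.57 and 0 CPM.

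Over whole marker lists, the 9 macrophage and monocyte markers summed to 124 and 53.0 CPM in WT and 23.1 and 2.16 CPM in *Pac1*-/- ILC2s with NMU, and to between 4.9 and 29.7 CPM in the other 12 libraries. The 6 airway markers summed to 90.8 and 40.8 CPM against 9.55 and 2.79 CPM, with at most 8.54 CPM elsewhere. The 10 alveolar markers summed to 245 and 151 CPM against 27.8 and 55.7 CPM, with 16.6 to 91.1 CPM elsewhere. Single genes already described made up much of these WT sums. They were *Lyz2* at 112 and 27.9 CPM, *Scgb1a1* at 90.5 and 40.8 CPM, and *Sftpc* at 178 and 94.5 CPM. Another surfactant gene, *Sftpa1*, moved with *Sftpc*, at 22.8 and 17.1 CPM in WT and 0.096 and 0 CPM in *Pac1*-/- ILC2s. It was called by DESeq2 and not by edgeR (adjusted *P* = 0.643). The alveolar list members *Epcam* and *Napsa* overlapped between the genotypes. The macrophage markers *Cd68* and *Cd14* overlapped between the genotypes. Several defining markers were at 0 in all 4 NMU libraries, namely *Marco* and *Fcgr1* of macrophages, *Sftpb* and *Sftpd* of alveolar cells, and *Scgb3a2* and *Cyp2f2* of airway cells. Neutrophil markers summed to at most 0.11 CPM. Among the NMU libraries, *Ccl3*, *Ccl4*, and *Ltb* were also higher in both WT libraries, with *Ccl3*, *Ccl4*, and *Lyz2* highest in WT replicate 1 and *Ltb* in WT replicate 2, and the part of other cells in these differences was not tested. In bulk libraries, fewer cells of a type cannot be told apart from less RNA per cell.

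**Figure D3:**
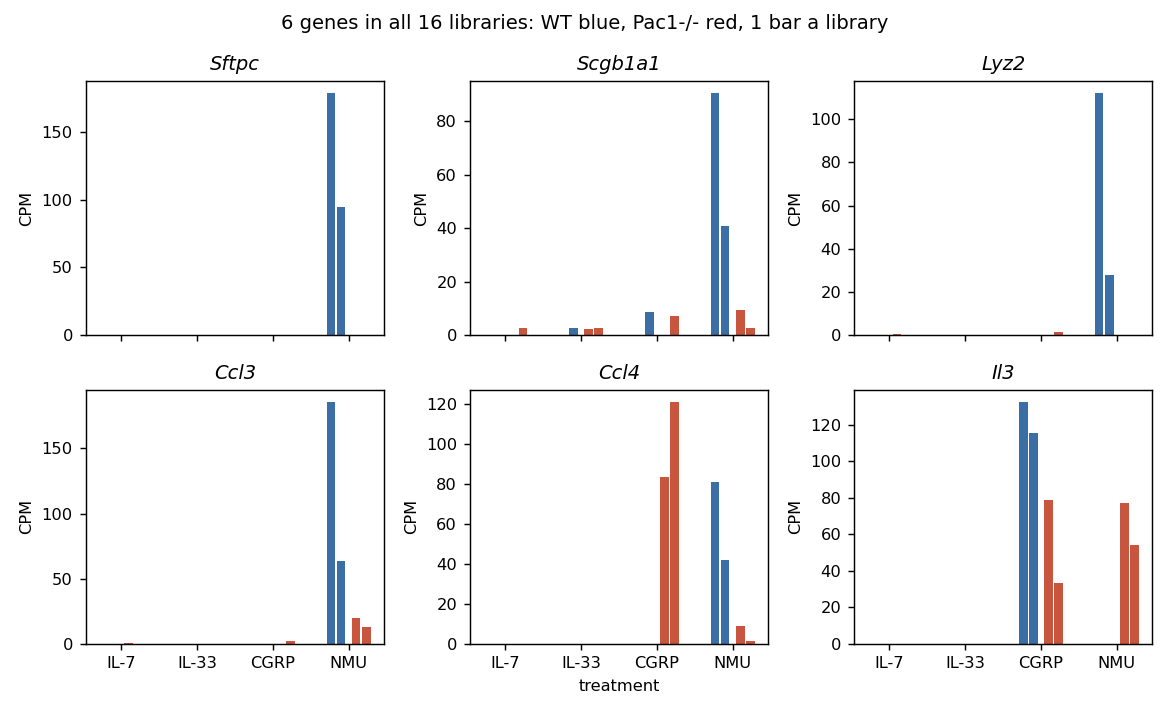
CPM of *Sftpc*, *Scgb1a1*, *Lyz2*, *Ccl3*, *Ccl4*, and *Il3* in all 16 libraries, 1 bar a library, with WT in blue and *Pac1*-/- in red, and a linear axis from 0. *Sftpc*, *Lyz2*, and *Ccl3* stood in the 2 WT libraries with NMU and were close to 0 elsewhere except in *Pac1*-/- ILC2s with NMU for *Ccl3*, and *Il3* was present with CGRP in both genotypes.

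The receptor pathways of the neuropeptides showed few differences. Of 22 genes of the NMU receptor, Gq, and calcium pathway, 20 were tested, none was at an unadjusted *P* value under 0.05, and the median log2 fold change was −0.09. *Nmur1*, the NMU receptor, was low, at 2.77 and 11.1 CPM in WT and 0.96 and 4.86 CPM in *Pac1*-/- ILC2s. *Nfatc1*, a calcium-regulated transcription factor, was at 7.85 and 19.5 CPM against 26.5 and 36.7 CPM (1.21, SE 0.63). Of 24 genes of the CGRP receptor and cAMP pathway, 19 were tested, 5 had a positive log2 fold change, and 1, *Calcrl*, had an unadjusted *P* value under 0.05. *Calcrl* was at 230.4 and 117 CPM in WT and 403 and 313 CPM in *Pac1*-/- ILC2s (1.05, SE 0.41), and its partner *Ramp1* at 226 and 146 CPM against 305 and 247 CPM (0.57, SE 0.34). In the 12 libraries without NMU, *Calcrl* lay between 24.6 and 94.6 CPM and the genotype difference was −0.24.

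Among the phosphatases of the PAC1 family, 9 of 12 were tested and none was at an unadjusted *P* value under 0.05. *Dusp6*, an ERK phosphatase and the most abundant, was at 101 and 94.4 CPM in WT and 102 and 120 CPM in *Pac1*-/- ILC2s, a difference of 0.18 that was smaller than its SE of 0.31, and *Dusp5* was at 40.3 and 42.2 CPM against 64.8 and 58.8 CPM (0.58). *Dusp10*, a phosphatase of p38 and JNK, was at 14.8 and 20.6 CPM against 0.48 and 6.03 CPM (−2.44, SE 1.18). The 16 tested genes of the MAP kinase list had a median of −0.10, and the feedback inhibitor *Spry2*, at 273 and 209 CPM against 260 and 212 CPM, overlapped between the genotypes.

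The early response factors held 4 genes at an unadjusted *P* value under 0.05, all higher in *Pac1*-/- ILC2s, among 13 tested, with a median of 0.05. *Egr1* was at 15.999 and 3.78 CPM in WT and 35.7 and 39.6 CPM in *Pac1*-/- ILC2s (1.94, SE 0.75, with 3.31 and 1.23 without WT replicates 1 and 2), *Nr4a3* at 49.2 and 30.5 CPM against 79.2 and 93.7 CPM (1.12, SE 0.40), and *Nr4a1* at 111 and 157 CPM against 234 and 220 CPM (0.76). These are immediate early transcription factors of activated lymphocytes, and none was called. The 10 tested AP-1 genes had a median of 0.25, and *Batf*, their most abundant member, was at 189 and 238 CPM against 252 and 277 CPM (0.31, SE 0.30). Medians near 0 were also found for the STAT and SOCS genes (0.17, 18 tested) and the NF-kB genes (−0.14, 15 tested).

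Surface molecules differed in single members. *Tnfsf8*, encoding CD30 ligand, was at 137 and 119 CPM in WT and 40.5 and 21.3 CPM in *Pac1*-/- ILC2s (−2.05, SE 0.43), and with IL-33 it lay the other way, at 60.3 and 63.4 CPM against 107 and 90.1 CPM, an interaction of −2.75 (SE 0.56, edgeR adjusted *P* = 0.786). *Pdcd1*, the checkpoint receptor PD-1, was at 84.1 and 295 CPM against 47.4 and 75.5 CPM (−1.63, SE 0.61), a difference that was −0.45 without WT replicate 2. *Cd69*, an activation and retention marker, was at 335 and 231 CPM in WT and 578 and 586 CPM in *Pac1*-/- ILC2s (1.04, SE 0.32), and *S1pr1*, an egress receptor, had 24 and 24 counts in WT and 0 counts in both *Pac1*-/- libraries. The receptors for IL-33, IL-7, and IL-2 overlapped or nearly so, with log2 fold changes of 0.09 for *Il1rl1*, −0.02 for *Il7r*, and −0.02 for *Il2ra*.

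**Figure D4:**
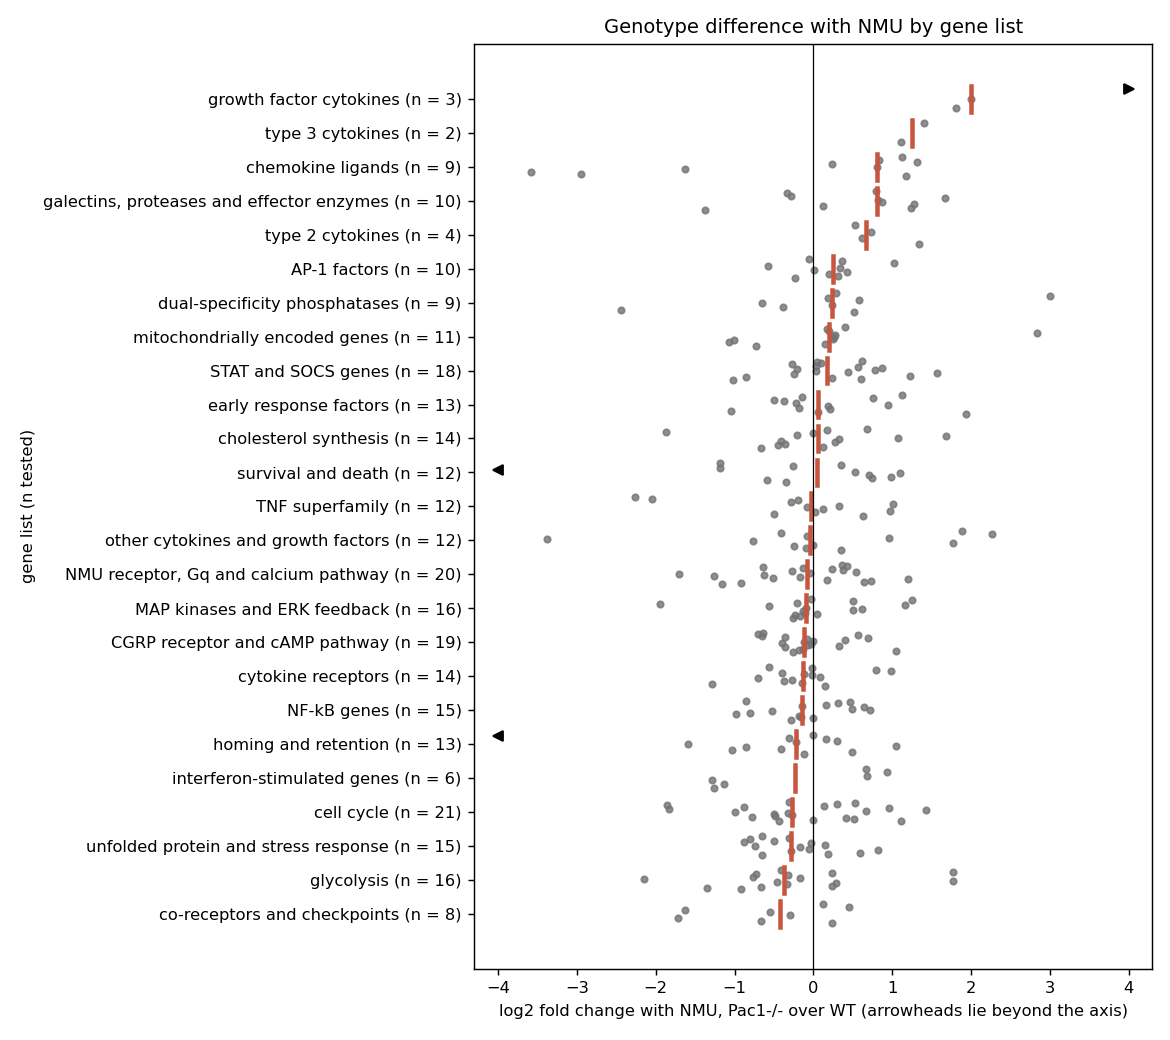
Log2 fold changes of *Pac1*-/- over WT with NMU for each tested gene of 25 lists (points), with the list median as a red line and arrowheads for genes beyond the axis. The growth factor and type 3 cytokine lists had the highest medians, 2.0 and 1.26, and the co-receptor and checkpoint list the lowest, −0.42.

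The glycolysis, cell cycle, and unfolded protein lists had medians below 0, whereas those of the cholesterol and mitochondrially encoded lists were above 0. Glycolysis genes had a median of −0.37 over 16 tested, with 11 negative. *Aldoa* was at 594 and 1113 CPM in WT and 359 and 540 CPM in *Pac1*-/- ILC2s (−0.92, SE 0.41) and *Ldha* at 1685 and 2789 CPM against 1411 and 1829 CPM (−0.47, SE 0.38), with the highest level in WT replicate 2 in each case. The glycolysis median turned to 0.12 without that library. Of the 21 tested cell cycle genes, 12 had a negative log2 fold change, and *Rrm1*, a ribonucleotide reductase subunit, was at 44.6 and 61.7 CPM against 8.31 and 21.1 CPM (−1.85, SE 0.59). The proliferation marker *Mki67* was at 2.62 CPM or less in all 4 libraries. The unfolded protein list had a median of −0.29 over 15 tested, with its most abundant member *Hspa5* at 1074 and 1446 CPM against 1191 and 1267 CPM. The cholesterol list had a median of 0.05 over 14 tested.

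Other genes that the naming rule selected are given here. *Bid* and *Hpgds* were members of the lists, and *Tph1*, *Arl5c*, and *Lsp1* lay outside them. *Tph1*, the enzyme of serotonin synthesis that activated ILC2s express, was at 472 and 555 CPM in WT and 178 and 237 CPM in *Pac1*-/- ILC2s (−1.31, SE 0.31) and was called by DESeq2 (adjusted *P* = 0.0216). *Bid*, a proapoptotic BCL-2 family gene, had 101 and 175 counts in WT and 2 and 0 counts in *Pac1*-/- libraries, a ratio of 192 (95% interval for counting error 52.7 to 1596). Its transcripts overlap *Bcl2l13* on the other strand, and in the other 12 libraries *Bid* ranged from 0 to 11.7 CPM in both genotypes. *Arl5c*, a small GTPase gene, was at 24.3 and 23.6 CPM against 104 and 76.5 CPM (1.92, SE 0.39), and the sign was negative with IL-33 (−0.70) and CGRP (−0.37). *Lsp1*, a lymphocyte actin-binding protein gene, was at 92.5 and 85.1 CPM against 25.1 and 33.2 CPM (−1.61, SE 0.37), and *Hpgds*, the prostaglandin D2 synthase of ILC2s, at 61.2 and 88.7 CPM against 126 and 148 CPM (0.87, SE 0.34).

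Genes that differed between the NMU and IL-33 libraries, averaged over genotypes, were also compared between the genotypes. By edgeR, 13 genes were called higher with NMU (0.103% of 12567) and 0 lower. They were *Il17f*, *Il3*, *Ccl3*, *Il2*, *Il4*, *Sftpc*, *Il9*, *Cd36*, *Il13*, *Il17a*, *Cxcl3*, *Ccl4*, and *Cxcl2*. Within NMU, 10 of the 13 had a positive and 3 (*Ccl3*, *Ccl4*, *Sftpc*) a negative genotype difference, with a median of 0.94. The NMU libraries served both to choose this list and to give these values, so the count is a description, and *Sftpc* was high in the WT libraries alone. The response to NMU of *Il13* was 2.40 in WT and 3.20 in *Pac1*-/- ILC2s on the log2 scale, and that of *Csf2* was 0.10 and 2.87.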

How the data were processed

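The deposited table held raw read counts per Ensembl gene for 16 libraries, which the authors made by amplifying full-length cDNA, sequencing it paired-end, and aligning it to mm10 with HISAT2. The counting tool, annotation release, strand use, and handling of duplicates are not given in the sources used here, so overlapping and antisense genes cannot be separated. Of 51912 identifiers, 51719 were matched to GENCODE M21. Genes were filtered with filterByExpr, scaled by TMM, and tested in edgeR 4.0.16 (glmQLFit, robust) on the 4 NMU libraries. The interaction was fitted on the 8 IL-33 and NMU libraries, and DESeq2 1.42.0 was the alternative. An exact permutation test of 2 against 2 libraries cannot go below *P* = 0.333 and was not used. Scripts were tested on simulated data. The members and gene lists were chosen with earlier results of these data known. Named genes were *Dusp2*, called genes, the 10 smallest *P* values in each direction among genes of at least 20 CPM whose genotypes did not overlap, detected cytokines, *Calcrl*, *Ramp1*, *Calca*, and the top members of each list. List members given as values besides these, with *Rad50*, *H2-Ab1*, and *Sftpa1*, were chosen after their values were seen. Near-identical stretches were matches of at least 95% identity over 100 bases between transcripts (BLAST+ 2.17.0). *Il17f* shared such stretches with 39 other genes, *Rrm1* with 18, *Il2ra* with 12, and *Hpgds* with 11. How reads from these stretches were assigned is uncertain.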

Additional observations from a re-analysis of the deposited data

Results flagged for a closer look

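Of 58 named genes of at least 20 CPM whose genotypes did not overlap with NMU, 23 (39.7%) also did not overlap in the opposite direction in another treatment where they had at least 20 CPM. Over all tested genes the same held for 702 of 1707 (41.1%), so the share among the named genes was close to the background. The difference between treatments was not tested for them beyond the interaction with IL-33, which called 0 genes in edgeR (785 at an unadjusted *P* value under 0.05, 38 called by DESeq2). The log2 fold changes of *Pac1*-/- over WT in the opposing treatment were as follows.

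With IL-33, *Csf2* was at −0.96, *Arl5c* at −0.70, and *Ramp1* at −0.23, while *Tnfsf8* was at 0.68, *Il18rap* at 0.63, *Irf1* at 1.72, and *Ppp1r15a* at 1.03. With CGRP, *Il17f* was at −2.09, *Il3* at −1.16, *Il4* at −0.63, *Gys1* at −1.44, and *Ppp3ca* at −0.60, while *Lsp1* was at 0.83 and *Traf1* at 0.64. *Ccl4* was at 0 counts in WT ILC2s with CGRP and at least 696-fold higher in *Pac1*-/- ILC2s against 3 counts over the group, a log2 bound of 9.44. With IL-7, *Ccl1* was at −1.27, *Itpr2* at −0.96, *Cish* at −0.85, *Cxcl2* at −0.71, *Cd69* at −0.70, *Nfkbiz* at −0.48, and *Calcrl* at −0.38, while *Pdcd1* was at 0.13.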

How the results depend on the processing

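With 2 libraries a group, few calls were stable. For genotype with NMU, 3 genes were called, 3 with the adjusted *P* value alone, 66 with DESeq2, 84 with DESeq2 without edgeR's filter (chosen after seeing the data), 35 without a filter, 1 with at least 10 counts in every library, 2 with DESeq2's size factors, and 3 with all 16 libraries in the fit. Leaving out 1 library gave between 1 and 75 calls, the highest without *Pac1*-/- replicate 2 (11 without replicate 1) and the lowest without WT replicate 1 (4 without replicate 2). *Gm42031* was called in each of these fits that tested it, and only *Gm42031* without WT replicate 1. For the interaction, 0 genes were called, 38 with DESeq2, and 11 without a filter, and leaving out 1 library gave between 0 and 22, with 22 and 10 without *Pac1*-/- NMU replicates 2 and 1, and 9 and 2 without WT IL-33 replicates 1 and 2. Same-numbered WT and *Pac1*-/- libraries shared only a number, with a correlation of their deviations of 0.0601. A replicate block gave 2 calls for genotype with NMU, *Il3* being at an adjusted *P* of 0.0696 by edgeR, and 0 for the interaction. The cause of these changes was not tested. Of 96 named genes tested, between 88 and 96 kept their sign under each alternative but that of at least 10 counts in every library, which tested 82 and kept the sign of 81. None of those that changed it had genotypes that did not overlap. Leaving out 1 library cannot reverse groups that do not overlap, except through scaling, so for those fits this outcome was set beforehand. Without WT replicate 1 or 2, *Lgals3* moved to 1.17 or 2.42 and *Gm10320* to 4.82 or 6.14. In the same fits *mt-Nd3* moved to 2.36 or 3.55 and *Nfatc1* to 0.70 or 2.01. Without *Pac1*-/- replicate 1 or 2, *Gm15446* moved to 4.21 or 5.82, *Scgb1a1* to −4.55 or −2.77, and *Sftpc* to −13.24 or −9.37. In the same fits *Dusp10* moved to −1.55 or −5.16 and *Rrm1* to −1.33 or −2.67. Without 1 library, between 3 and 9 of 26 list medians changed sign, none of them a type 2, type 3, growth factor, or chemokine list. The tested members of those lists were mostly genes whose genotypes did not overlap, so their result was likewise largely set beforehand. The shallower WT libraries limit what is seen of genes below about 0.462 CPM.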
